A study of Mus musculus with 12 samples.

Results

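The cystatin superfamily genes Stfa1, Stfa2, Stfa2l1, Stfa3, Cstb, Cst3 and Cst7 were followed in cultured mouse neutrophils, and these 7 genes were taken by their names from the 29737 rows of the deposited count table. All 7 had a row, and all 7 passed the filter on low counts that left 16761 genes for testing. The cells were neutrophils of wild-type mouse bone marrow, given in the labels as Ly6G+ cells sorted with EasySep magnetic beads and kept for 24 h in RPMI medium with 10% fetal bovine serum. The study's methods name healthy young female C57BL/6 mice, and an enrichment kit for neutrophils after a density medium. No group carried a deletion or a transgene. The groups were PBS as the vehicle, TCA (taurocholic acid), Tβ-MCA (tauro-β-muricholic acid) and GCA (glycocholic acid), with 3 samples each. The labels give 200 μM for TCA and GCA but 10 μM for Tβ-MCA, while the study's methods name the same dose for the bile acids, so the dose of Tβ-MCA is unsettled. The comparisons address how each conjugated primary bile acid changes the transcripts of neutrophils.

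Cystatins are tight-binding, reversible inhibitors of papain-like cysteine proteases, chiefly the lysosomal cathepsins. Stefins, the type 1 cystatins, are small cytosolic proteins without a signal peptide, and they comprise stefin A and stefin B (Cstb). In the mouse, the stefin A genes form a cluster of close copies on chromosome 16 that is known for its expression in myeloid cells. Cystatin C (Cst3) is a secreted type 2 cystatin made by most cells, and cystatin F (Cst7) is a type 2 cystatin of blood cells that reaches lysosomes and granules, where it can restrain cathepsin C, the activator of the granule serine proteases.

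Total counts were 32757389 to 41375925 per sample, and 3 counts, taken as the limit of detection, correspond to 0.073 to 0.093 CPM (counts scaled to the library size), a limit that covers counting error only. Levels are given below as CPM after TMM normalization, and as RPKM (reads scaled to gene length and library size) where genes are compared with each other. Nothing in the labels says that the 3 samples of a group came from separate mice, so p-values measure the spread between these samples, which may be technical. All 12 neutrophil markers, Ly6g and S100a8 among them, were present, with a summed level of 39100 to 60400 CPM over the 12 samples. The 12 monocyte and macrophage markers summed to 1170 to 1250 CPM with PBS, 1050 to 1290 CPM with TCA, 915 to 1230 CPM with GCA and to 395, 514 and 1000 CPM in the 3 Tβ-MCA samples, numbered 3, 4 and 5. Tβ-MCA replicate 5 lay nearer to PBS than the other two Tβ-MCA samples for these markers, and the affected results are given with and without it. In bulk RNA, fewer cells of a type and less RNA per cell cannot be told apart.

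The 4 stefin A genes among the members lie on mouse chromosome 16 (GRCm38, coordinates of the deposited table). Stfa2l1 lies on the plus strand at chr16:36156811-36161948, Stfa1 on the plus strand at chr16:36277148-36285371, Stfa2 on the minus strand at chr16:36403946-36408363 and Stfa3 on the minus strand at chr16:36450537-36455392. Cstb lies on the plus strand at chr10:78425670-78427619. Cst3 and Cst7 lie on the minus strand at chr2:148871722-148875692 and on the plus strand at chr2:150570415-150578944. None of the 7 overlapped another gene of the table.

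The coding sequence around the first hairpin loop, the part of a cystatin that enters the active-site cleft of the protease, shows how close the stefin A copies are and how far Cstb, Cst3 and Cst7 stand from them. The windows below were built from GENCODE vM21 transcripts on GRCm38, run 5′ to 3′ on the coding strand and span an exon junction. The capitals mark the codons of the loop, which were located by the residue pattern conserved in the family. The Stfa2l1 window covers chr16:36159970-36160047 and chr16:36161747-36161773, that of Stfa1 chr16:36280490-36280567 and chr16:36285170-36285196, that of Stfa2 chr16:36405130-36405207 and chr16:36404126-36404152 and that of Stfa3 chr16:36452151-36452228 and chr16:36450708-36450734. The Cstb window covers chr10:78426951-78427028 and chr10:78427311-78427337, that of Cst3 chr2:148875153-148875200 and chr2:148872874-148872930 and that of Cst7 chr2:150575829-150575876 and chr2:150577656-150577712.
Stfa2l1: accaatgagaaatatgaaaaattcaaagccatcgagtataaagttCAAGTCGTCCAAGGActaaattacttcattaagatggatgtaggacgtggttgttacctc
Stfa2: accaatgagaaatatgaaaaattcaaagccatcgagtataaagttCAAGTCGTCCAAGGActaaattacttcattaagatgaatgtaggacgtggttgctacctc
Stfa1: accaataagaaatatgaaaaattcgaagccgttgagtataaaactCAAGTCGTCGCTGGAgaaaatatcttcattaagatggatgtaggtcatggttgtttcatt
Stfa3: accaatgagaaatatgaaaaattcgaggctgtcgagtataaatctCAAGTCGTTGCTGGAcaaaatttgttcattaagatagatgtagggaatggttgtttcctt
Cstb: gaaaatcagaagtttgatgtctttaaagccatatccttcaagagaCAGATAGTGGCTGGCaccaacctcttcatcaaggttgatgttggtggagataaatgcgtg
Cst3: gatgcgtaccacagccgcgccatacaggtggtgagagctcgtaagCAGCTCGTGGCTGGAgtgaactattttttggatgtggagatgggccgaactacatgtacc
Cst7: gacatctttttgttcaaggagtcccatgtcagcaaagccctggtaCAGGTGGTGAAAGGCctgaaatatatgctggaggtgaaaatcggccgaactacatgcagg

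Stfa2 and Stfa2l1 were the closest pair among the members, with 96.4% identity over coding sequences of 309 bases and 11 differing positions. Stfa3 shared 81.6% with Stfa2l1 and 80.9% with Stfa2. Stfa1, with a coding sequence of 291 bases, shared 73.1% with Stfa2l1 and 97.9% with BC100530, a further row of the cluster. Cstb shared 57.0% with Stfa2l1, and Cst3 and Cst7 shared 43.8% and 44.6%. In the loop window, Stfa2 differed from Stfa2l1 at 2 positions, and Gm5483, the next most abundant row of the cluster, at 16. Both are shown with these positions in capitals, because reads must fall on such positions to be assigned to the right copy.
Stfa2: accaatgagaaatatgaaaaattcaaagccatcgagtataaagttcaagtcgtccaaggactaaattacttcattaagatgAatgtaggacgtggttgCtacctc
Gm5483: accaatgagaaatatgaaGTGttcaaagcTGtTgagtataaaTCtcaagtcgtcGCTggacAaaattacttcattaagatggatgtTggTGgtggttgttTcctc

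The shared stretches bear on the counts. Of all 50-base stretches of the transcript, 24.9% for Stfa2l1, 20.4% for Stfa2 and 37.1% for Stfa1 also occurred in a transcript of another gene, against 0% for Stfa3, Cstb, Cst3 and Cst7. For 100-base stretches the shares were 0% for Stfa2l1 and Stfa2 and 9.09% for Stfa1, whose shared stretches lay in BC100530. The copy closest to Gm5483 was 2010005H15Rik, with 96.9% identity of the coding sequences and the same loop window. Of the stretches of Gm5483, 35.6% of 50 bases and 11.1% of 100 bases also occurred in 2010005H15Rik, so these 2 rows may share reads. Whether reads that matched several copies were counted is not given in the sources used here, so single values of the stefin A copies are uncertain, and their sum is given beside them below.

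Promoters are shown for Stfa2l1, Stfa2 and Stfa1, whose levels are compared below and whose upstream sequences are near copies. The RefSeq promoter table (GRCm38.p6) held 6 of the 7 members, and Cstb was not among them. The 250 bases before the gene start were 89.4% identical between Stfa2 and Stfa2l1, and 80.2% to 83.1% identical between the other pairs of the 4 stefin A genes, against 42.9% between Cst3 and Cst7. The sequences lie at chr16:36156561-36156810 on the plus strand for Stfa2l1, at chr16:36408364-36408613 on the minus strand for Stfa2 and at chr16:36276898-36277147 on the plus strand for Stfa1. Capitals mark matches, on either strand, to GAGGAA, a core site of the myeloid factor PU.1, or to TTGCNNAA, a core site of C/EBP factors.
Stfa2l1: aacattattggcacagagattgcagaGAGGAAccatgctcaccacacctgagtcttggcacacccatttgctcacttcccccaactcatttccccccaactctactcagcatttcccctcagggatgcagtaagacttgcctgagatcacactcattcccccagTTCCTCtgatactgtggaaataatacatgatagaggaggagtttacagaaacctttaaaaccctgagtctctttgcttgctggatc
Stfa2: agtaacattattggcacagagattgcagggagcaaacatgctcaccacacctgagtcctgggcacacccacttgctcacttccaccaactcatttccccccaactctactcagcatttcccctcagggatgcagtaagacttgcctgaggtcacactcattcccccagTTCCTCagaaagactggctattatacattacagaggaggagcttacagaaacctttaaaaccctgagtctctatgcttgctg
Stfa1: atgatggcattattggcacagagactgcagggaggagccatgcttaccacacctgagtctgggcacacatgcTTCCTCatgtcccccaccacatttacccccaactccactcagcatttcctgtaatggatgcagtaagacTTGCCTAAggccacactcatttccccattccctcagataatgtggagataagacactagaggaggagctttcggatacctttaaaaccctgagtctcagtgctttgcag

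GAGGAA occurred 2 times upstream of Stfa2l1, 1 time each upstream of Stfa1, Stfa2, Stfa3 and Cst3, and not upstream of Cst7, and 23.3% of all 32851 promoters of the table held it. TTGCNNAA was found upstream of Stfa1 alone among the 6, against 9.56% of all promoters. These windows held no TATAAA, which 12.4% of all promoters held. These matches did not overlap each other, and a match is a stretch of letters and not a measured binding site.

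Per length, Cst3 was the most abundant of the 7 genes, and the stefin A copies spanned a wide range. The mean level with PBS was 190 RPKM for Cst3, 88.3 RPKM for Cstb, 36.4 RPKM for Stfa2l1, 4.95 RPKM for Stfa1, 3.58 RPKM for Cst7, 1.93 RPKM for Stfa2 and 0.567 RPKM for Stfa3. With PBS the ranges of neighbours in this order were separate, except for Stfa2 and Stfa3. Of the genes tested, 98.4% had a lower mean RPKM with PBS than Cst3, 90.4% a lower one than Stfa2l1 and 21.1% a lower one than Stfa3.

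Over all 12 samples, Cst3 varied from 139 to 205 RPKM and Cstb from 66.8 to 100 RPKM, so their highest sample was 1.47 and 1.5 times their lowest. Stfa2l1 ranged from 6.05 to 43.1 RPKM, a ratio of 7.12. Stfa1 ranged from 2.45 to 7.35 RPKM and Cst7 from 2.01 to 3.61 RPKM. Stfa2 and Stfa3 were close to the limit of detection, with 0 to 53 and 1 to 25 counts, and Stfa2 had 0 counts in Tβ-MCA replicate 4. Across all samples the ranges overlapped between neighbours from Stfa2l1 and Stfa1 downward in this order, while Cst3, Cstb and Stfa2l1 did not overlap each other.

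**Figure D1:**
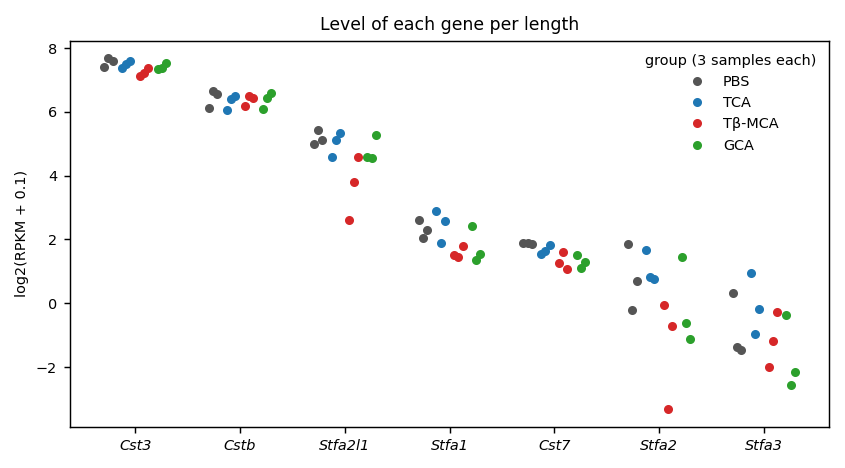
Level of each gene on the log2(RPKM + 0.1) scale (y axis) for the 7 genes (x axis, in the order of the PBS mean). Each point is 1 sample, 3 per group, and Cst3 lies highest in all 12 samples while Stfa2l1 has its lowest points with Tβ-MCA.

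With Tβ-MCA, transcripts of 2 of the 7 genes, Cst3 and Cst7, were lower than with PBS. Cst3 fell by 0.38 and Cst7 fell by 0.61 on the log2 scale, to 0.767 and 0.655 times the PBS level. A gene was called at a Benjamini-Hochberg adjusted p under 0.05 in edgeR's quasi-likelihood test over all 12 samples, which called 7.62% of all genes tested in this comparison, 3.18% as lower. Stfa2l1, Stfa2 and Stfa1 had larger differences than Cst3 and Cst7 that did not pass. Of the 7 genes, 5 had an unadjusted p under 0.05, as did 24.9% of all genes. All 7 log2 fold changes were below 0, as were 49.4% of all genes tested, and the median over the 7 was -0.61 against 0.00 over all genes.

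Cst3, the secreted cystatin C, stood at 220, 262 and 247 CPM in PBS replicates 3, 5 and 6. With Tβ-MCA, in the samples numbered 3, 4 and 5, it stood at 172, 181 and 206 CPM. All Tβ-MCA samples lay below all PBS and TCA samples, the lowest of TCA being at 214 CPM. The highest Tβ-MCA sample lay just above the lowest GCA sample, at 205 CPM, so these 2 groups overlapped. The log2 fold change was -0.38 (SE 0.09, 95% interval -0.57 to -0.20). In edgeR's quasi-likelihood test the adjusted p was 0.0238, and it ranged from 4.98e-05 to 0.125 over 21 alternatives, 12 of which called the gene.

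Calls in this comparison rested on single samples. Without PBS replicate 3 or 5 or Tβ-MCA replicate 3 or 4, edgeR's quasi-likelihood test called 0 of all genes, with 2875 to 3599 at an unadjusted p under 0.05, so each gene called lower here or in the lists below lost its call, and 168 genes were called without PBS replicate 6. The Cst3 call was lost when any of 5 samples was left out. The adjusted p of edgeR's quasi-likelihood test was 0.0710, 0.0858 and 0.0575 without PBS replicates 3, 5 and 6, and 0.115 and 0.125 without Tβ-MCA replicates 3 and 4. Without Tβ-MCA replicate 5 the log2 fold change was -0.46, with an adjusted p of 0.00213 by the same test.

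Cst7, the cystatin F of lysosomes and granules, stood at 3.64, 3.59 and 3.48 CPM with PBS. It stood at 2.24, 2.81 and 1.95 CPM in the Tβ-MCA samples of the same order, and here replicate 5 was the lowest. The groups did not overlap. The log2 fold change was -0.61 (SE 0.18, 95% interval -0.99 to -0.23). edgeR's quasi-likelihood test gave an adjusted p of 0.0491, just under the threshold, and the range over 21 alternatives was 0.0198 to 0.17, with the gene called in 5.

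The Cst7 call was kept without GCA replicate 3 or 4 and lost without any of the other 10 samples, namely the PBS, TCA and Tβ-MCA samples and GCA replicate 5. Without Tβ-MCA replicate 5, edgeR's quasi-likelihood test gave a log2 fold change of -0.50 and an adjusted p of 0.0917, and the adjusted p was highest, at 0.17, without Tβ-MCA replicate 3.

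Stfa2l1, the most abundant stefin A copy, stood at 13.4, 18 and 14.3 CPM in PBS replicates 3, 5 and 6. Its level in the Tβ-MCA samples 3, 4 and 5 was 2.45, 5.51 and 9.77 CPM. The Tβ-MCA samples lay below all PBS and TCA samples but differed by several fold among themselves, and the highest of them overlapped the lowest GCA sample. The log2 fold change from PBS was -1.36 (SE 0.43, 95% interval -2.32 to -0.39), or 0.39 times the PBS level. By edgeR's quasi-likelihood test p was 0.011 before and 0.0871 after adjustment. The adjusted p ranged from 3.01e-21 to 0.26 over 21 alternatives. Of these, 5 called the gene, among them the cutoffs of the study's methods, applied to the unadjusted p. Among the fits that left out 1 sample, the lowest adjusted p of edgeR's quasi-likelihood test was 0.0072.

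Of the samples left out in turn, Tβ-MCA replicate 5 alone changed the result for Stfa2l1. Without it the log2 fold change was -1.92, and edgeR's quasi-likelihood test gave an adjusted p of 0.0072, in a fit that called 18% of all genes, 9.44% as lower. At the cutoffs of the study's methods, an unadjusted p under 0.05 and a fold change of at least 2, Stfa2l1 and Stfa2 were called lower, as were 1.86% of all genes tested.

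Stfa1 stood at 2.58, 1.71 and 2 CPM with PBS. It stood at 1.14, 1.08 and 1.39 CPM with Tβ-MCA, so that the groups did not overlap and the spread within Tβ-MCA was small. Its log2 fold change of -0.80 (SE 0.32) had a p of 0.0245 before and 0.134 after adjustment in edgeR's quasi-likelihood test, and the adjusted p ranged from 0.0319 to 0.342 over the alternatives. The groups were separate, with Tβ-MCA lower, for Stfa1, Stfa2l1, Cst3 and Cst7, as they were for 12.8% of all genes tested.

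Stfa2 stood at 1.52, 0.324 and 0.647 CPM with PBS, and at 0.359, 0 and 0.214 CPM with Tβ-MCA. The highest Tβ-MCA sample lay above the lowest PBS sample, and these values rest on 0 to 53 counts. A log2 fold change of -2.13 (SE 0.93) was fitted, for which edgeR's quasi-likelihood test gave an adjusted p of 0.181, and the range over 19 alternatives was 0.000118 to 0.464. Without PBS replicate 3 the log2 fold change was -1.37.

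Stfa3 stood at 0.488, 0.118 and 0.108 CPM with PBS and at 0.0598, 0.135 and 0.294 CPM with Tβ-MCA. In Tβ-MCA replicate 3 it had 2 counts, under the limit of detection. Its log2 fold change of -0.51 (95% interval -2.34 to 1.32) had an adjusted p of 0.77 in edgeR's quasi-likelihood test, and it was 0.54 without PBS replicate 3, so no difference was detectable at this depth.

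Cstb, the stefin B of the cytosol, was the steadiest stefin. It stood at 42.9, 60.7 and 56.8 CPM with PBS and at 42.7, 52 and 51.1 CPM with Tβ-MCA, and the groups overlapped. For Cstb the log2 fold change was -0.14 (95% interval -0.47 to 0.19), and edgeR's quasi-likelihood test gave an adjusted p of 0.628.

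**Figure D2:**
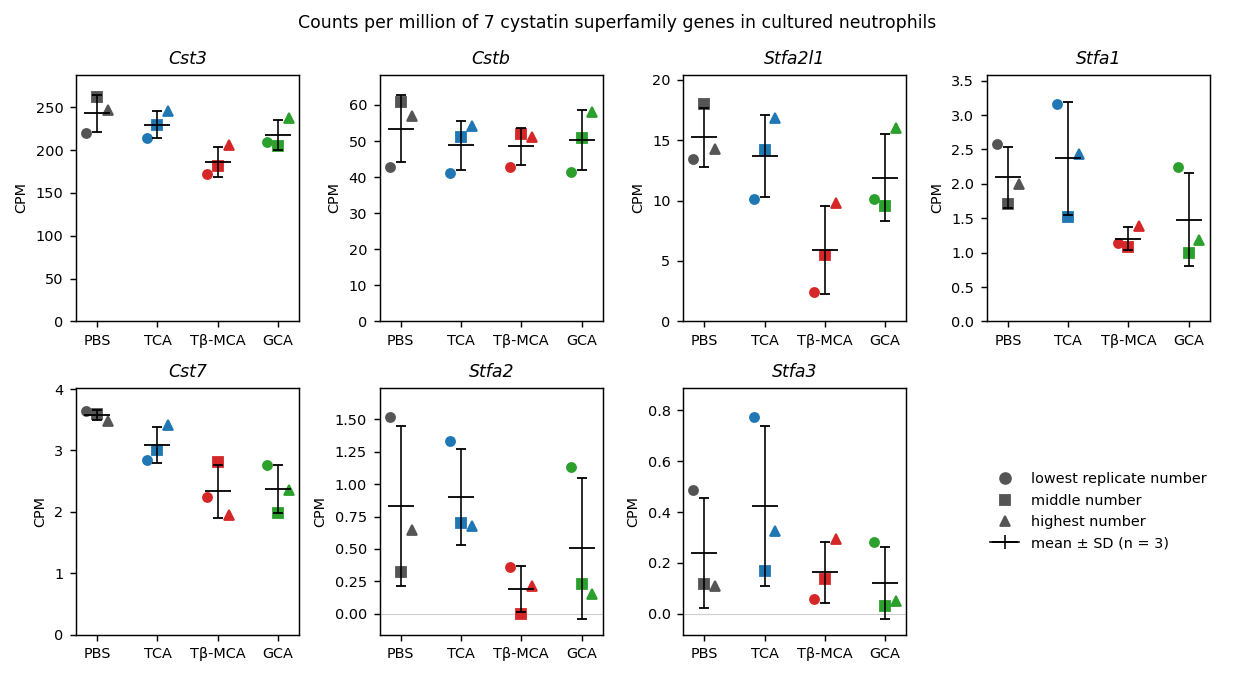
CPM (y axis, from 0) of the 7 genes in the 4 groups (x axis). Points are samples, marked by the order of their replicate numbers, and bars give the mean ± SD (n = 3). The 3 Tβ-MCA samples lie below the 3 PBS samples for Cst3, Stfa2l1, Stfa1 and Cst7.

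The replicate numbers ran through the values of Cstb and Stfa2. Cstb was lowest in replicate 3 of each of the 4 groups, at 42.9, 41.2, 42.7 and 41.5 CPM with PBS, TCA, Tβ-MCA and GCA, and so were 8.31% of all genes tested. Stfa2 was highest in replicate 3 of each group, at 1.52, 1.33, 0.359 and 1.13 CPM, and so were 8.21% of all genes. Nothing in the labels says what samples with the same number share.

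Summed over the 9 rows of the stefin A cluster in the table, the level was 25, 28.3 and 22.5 CPM in the PBS samples and 21.2, 22.8 and 26.4 CPM in the TCA samples. It was 5.59, 9.13 and 16.4 CPM with Tβ-MCA, and 19.2, 15.7 and 23.4 CPM with GCA. Every Tβ-MCA sample lay below every PBS and TCA sample, while the highest Tβ-MCA sample lay above the lowest GCA sample. Stfa2l1 made up 43.9% to 68.3% of the summed counts, and Stfa2l1 and Gm5483 together 57.2% to 89.2%.

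Gm5483 had 26.4 to 37.1 counts per 100 counts of Stfa2l1 in the 12 samples, a ratio whose range was similar in each group, with means of 30.8, 29.9, 31.6 and 34.2 with PBS, TCA, Tβ-MCA and GCA. Of the 8 cluster rows that were tested, all 8 had a log2 fold change below 0 with Tβ-MCA against PBS, with a median of -1.19. Where 3.18% of all genes were called lower, 1 of the 8 was. This was 2010005H15Rik, a further stefin A copy, with a log2 fold change of -1.74 and, by edgeR's quasi-likelihood test, an adjusted p of 0.0479. It had 2 to 34 counts per sample. Its means were 0.718, 0.337, 0.249 and 0.208 CPM with PBS, TCA, GCA and Tβ-MCA, so it was not low with Tβ-MCA alone. Against PBS its log2 fold changes were -1.06 with TCA and -1.51 with GCA, neither of them called. All GCA samples lay below all PBS samples, while the TCA samples overlapped PBS. With Tβ-MCA against TCA its log2 fold change was -0.68, not called, and it was not called without Tβ-MCA replicate 5 either. Gm5483 had a log2 fold change of -1.28 and an adjusted p of 0.0938 by the same test. Without Tβ-MCA replicate 5, 3 of the 8 rows were called, Stfa2l1, Gm5483 and 2010005H15Rik, with log2 fold changes of -1.99 for Gm5483 and -2.06 for 2010005H15Rik, beside the 9.44% of all genes called lower in that fit.

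**Figure D3:**
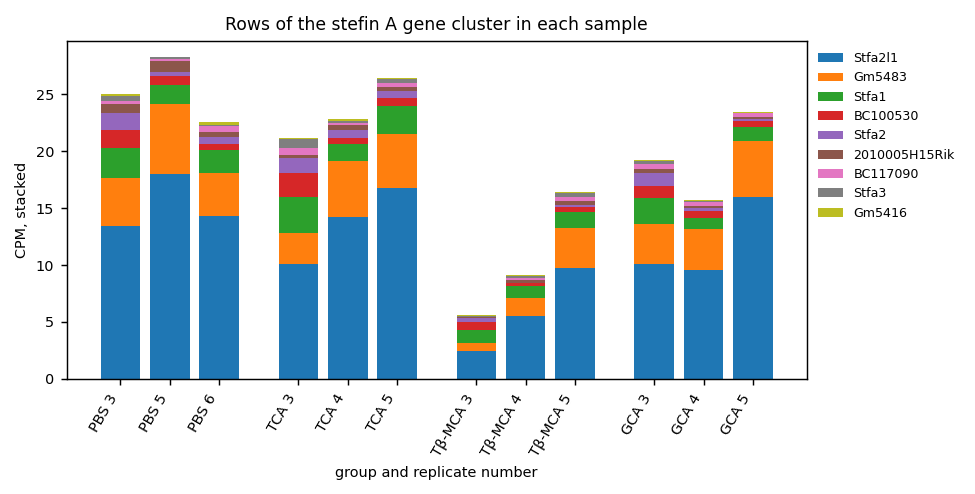
CPM of the 9 rows of the stefin A cluster, stacked (y axis, from 0), in each of the 12 samples (x axis, group and replicate number). Stfa2l1 and Gm5483 make up most of each bar, and the 3 Tβ-MCA bars, at 5.59 to 16.4 CPM, stand below all PBS and TCA bars.

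Markers of some other cells also differed between these samples. Of the 12 monocyte and macrophage markers, all 12 had a log2 fold change below 0 with Tβ-MCA against PBS, beside 49.4% of all genes. By edgeR's quasi-likelihood test 0 were called, and 4 had an unadjusted p under 0.05, beside 24.9% of all genes. Without Tβ-MCA replicate 5, 8 of the 12 were called lower, beside the same 9.44%. That sample was singled out by the sum of these same 12 markers, so their rise in calls is not a separate result. Their sum was lowest in Tβ-MCA replicate 3 and highest in replicate 5 of that group, the same order as for Stfa2l1 and Cst3, and none of the 12 was at 0 in a whole group. F13a1 weighed most in this sum, with means of 544 CPM with PBS and 166 CPM with Tβ-MCA, where the sums averaged 1220 and 637 CPM. Of the 12 neutrophil markers, 4 were called lower, namely Ly6g, S100a8, Mmp9 and Camp, or 8 of the 12 when that sample was left out, and the sum of the 12 was 39100 to 44500 CPM with Tβ-MCA against 48700 to 60400 CPM with PBS. The 6 eosinophil markers summed to 57.6 to 130 CPM with Tβ-MCA and 144 to 254 CPM with PBS. In the same order, the dendritic cell sum was 18.9 to 27.9 and 28.1 to 35.2 CPM. The median log2 fold change of its tested genes was 0.18. The T and NK cell sum was 1.24 to 1.71 and 2.35 to 2.68 CPM. For B cells it was 3.78 to 5.92 and 7.55 to 12.8 CPM. The groups overlapped for basophil and mast cell markers, at 30.6 to 55.4 and 33.2 to 63.5 CPM. They also overlapped for erythroid markers, at 1.44 to 2.32 and 1.35 to 2.53 CPM. Of these further lists, 1 of 6 eosinophil and 1 of 6 B cell markers were called lower, and 0 in the others. Without Tβ-MCA replicate 5, 2 eosinophil markers, 1 B cell marker and 1 of the 3 tested T and NK cell markers were called lower, and 0 in the others. The part of other cells in the values of the cystatins was not tested.

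With TCA, no member was called lower or higher than with PBS. edgeR's quasi-likelihood test called 0 of the 16761 genes in this comparison (0%), with 546 (3.26%) at an unadjusted p under 0.05, none of them a member, and DESeq2 called 1 gene. Cst3 stood at 214, 229 and 246 CPM with TCA, a log2 fold change of -0.08 (95% interval -0.26 to 0.10). Stfa2l1 stood at 10.1, 14.2 and 16.8 CPM, a log2 fold change of -0.15 (95% interval -1.07 to 0.77). The intervals include no change for all 7 genes, and those of Stfa2l1, Stfa2 and Stfa3 are too wide to leave out a change of 2-fold.

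Cst7 stood at 2.85, 3 and 3.41 CPM with TCA, and it was the member whose TCA samples all lay below the PBS samples, a separation that 4.76% of all genes showed in this direction. Its log2 fold change was -0.21 (95% interval -0.58 to 0.16). Stfa1 stood at 3.16, 1.52 and 2.44 CPM and Cstb at 41.2, 51 and 54.3 CPM, both overlapping PBS. Stfa2 at 1.33, 0.701 and 0.677 CPM and Stfa3 at 0.775, 0.169 and 0.325 CPM overlapped PBS as well, with log2 fold changes of 0.11 and 0.79.

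With GCA, edgeR's quasi-likelihood test again called 0 of 16761 genes (0%), with 591 (3.53%) at an unadjusted p under 0.05, and DESeq2 called 0. Cst7 was the member among the 591, and all 7 log2 fold changes were below 0, as were 49.7% of all genes tested. Cst7 stood at 2.76, 1.98 and 2.36 CPM with GCA, below all PBS samples, and 4.83% of all genes were separate from PBS in this direction. Its log2 fold change of -0.59 (SE 0.18, 95% interval -0.97 to -0.21) had a p of 0.00453 before and 0.999 after adjustment in edgeR's quasi-likelihood test, the latter at least 0.81 in each of the 21 alternatives.

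Stfa1 stood at 2.25, 1 and 1.19 CPM with GCA, so that 2 of the 3 samples lay below all PBS samples. Its log2 fold change was -0.50 (95% interval -1.17 to 0.17). Stfa2l1 stood at 10.1, 9.57 and 16 CPM, a log2 fold change of -0.36 (95% interval -1.28 to 0.57). Cst3, at 210, 205 and 238 CPM, had a log2 fold change of -0.16 (95% interval -0.34 to 0.02), and Cstb, at 41.5, 50.9 and 58.1 CPM, one of -0.09.

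Stfa2 at 1.13, 0.229 and 0.156 CPM and Stfa3 at 0.282, 0.0286 and 0.0519 CPM had log2 fold changes of -0.73 and -0.96 with GCA, and both turned above 0, to 0.04 and 0.09, without PBS replicate 3. In GCA replicates 4 and 5, Stfa3 had 1 and 2 counts, under the limit of detection. The 3 comparisons with PBS share the PBS samples, so their values are not independent of each other. Set side by side, the log2 fold changes of Cst7 with TCA, GCA and Tβ-MCA were -0.21, -0.59 and -0.61, those of Cst3 were -0.08, -0.16 and -0.38, and those of Stfa2l1 were -0.15, -0.36 and -1.36.

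**Figure D4:**
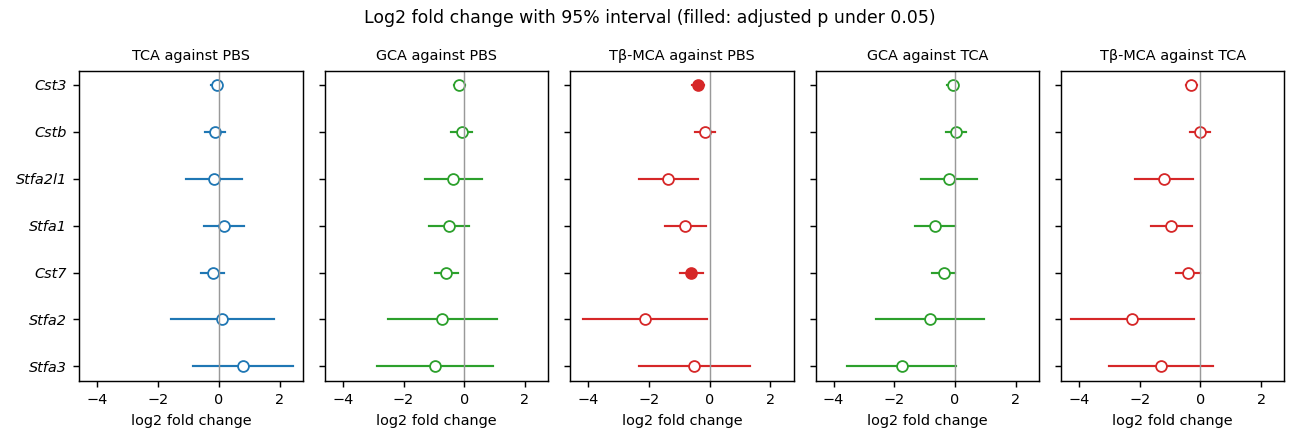
Log2 fold change (x axis) with its 95% interval for the 7 genes (y axis) in 5 comparisons (panels). Filled points mark an adjusted p under 0.05, which are Cst3 and Cst7 with Tβ-MCA against PBS.

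TCA and Tβ-MCA share the taurine and differ in the bile acid, cholic acid against the mouse β-muricholic acid, and by the labels also in dose. With Tβ-MCA against TCA, 0 of the 7 genes were called by edgeR's quasi-likelihood test, which called 3.51% of all genes, and 5 had an unadjusted p under 0.05, as did 22.2% of all genes. DESeq2 called 3 of the 7, Stfa1, Stfa2l1 and Cst3, all lower, where it called 9.68% of all genes, 4.7% as lower. At the cutoffs of the study's methods Stfa2 and Stfa2l1 were lower, as were 1.69% of all genes. The Tβ-MCA samples lay below all TCA samples for these 5 genes, Stfa1, Stfa2, Stfa2l1, Cst3 and Cst7, a separation in this direction that 12.1% of all genes showed.

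The log2 fold change between Tβ-MCA and TCA was -0.30 (SE 0.09, 95% interval -0.49 to -0.12) for Cst3, with an adjusted p of 0.0584 in edgeR's quasi-likelihood test and a range of 0.00268 to 0.24 over 21 alternatives. For Stfa1 it was -0.97 (SE 0.32), with an adjusted p of 0.0897 by the same edgeR test and a range of 0.00435 to 0.285. For Stfa2l1 it was -1.21 (SE 0.43), with an adjusted p of 0.138 by the same edgeR test and a range of 6.39e-17 to 0.356. Among the fits that left out 1 sample, its lowest adjusted p by that test was 0.012. Without Tβ-MCA replicate 5, Stfa2l1 at -1.77 and Cst3 at -0.38 were called, with adjusted p of 0.012 and 0.00829 in edgeR's quasi-likelihood test, in a fit that called 15.3% of all genes, 8.12% as lower. Cst3 was also called without PBS replicate 3, at an adjusted p of 0.0488 by the same edgeR test. Cstb differed by -0.01 (95% interval -0.34 to 0.33).

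GCA and TCA are the glycine and taurine conjugates of cholic acid and were given at the same dose. edgeR's quasi-likelihood test called 0 of 16761 genes between them (0%), with 412 (2.46%) at an unadjusted p under 0.05, and DESeq2 also called 0. Among the 7 genes, Stfa1 and Cst7 had an unadjusted p under 0.05. The difference on the log2 scale was -0.67 (95% interval -1.33 to -0.01) for Stfa1 and -0.38 (95% interval -0.77 to 0.00) for Cst7. The Cst7 samples were separate, with GCA lower, as 4.19% of all genes were, and the Stfa1 samples overlapped. For Cst3 the difference was -0.08 (95% interval -0.26 to 0.10) and for Stfa2l1 -0.20 (95% interval -1.13 to 0.72), so a 2-fold difference in Stfa2l1 is not left out by these samples.

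The protease targets of the cystatins were read from a list of 11 genes, the cysteine cathepsins and legumain, of which 10 were tested. With Tβ-MCA against PBS, 0 were called higher, 1 was called lower, beside 3.18% of all genes, and 9 did not pass. The median log2 fold change was -0.27. The gene called was Ctsc, cathepsin C, which stood at 25.7, 24.2 and 25.2 CPM with PBS and 11.6, 9.99 and 19.5 CPM with Tβ-MCA. All Tβ-MCA samples lay below PBS, and Ctsc had a log2 fold change of -0.87 (SE 0.20) and an adjusted p of 0.0307 by edgeR's quasi-likelihood test. When Tβ-MCA replicate 5 was left out, 5 of the 10 were called lower, beside 9.44% of all genes, and the value for Ctsc was -1.21.

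Cathepsin B (Ctsb), at 586 CPM with PBS and 591 CPM with Tβ-MCA, differed by 0.01 (95% interval -0.12 to 0.15), and cathepsin Z (Ctsz) by 0.11. Cathepsin S (Ctss) and legumain (Lgmn) had log2 fold changes of -0.52 and -0.78 that did not pass. Cathepsin L (Ctsl) stood at 47.9, 49 and 71.4 CPM with Tβ-MCA against 66.6 to 76.6 CPM with PBS, an overlap, and its log2 fold change of -0.36 did not pass. Without Tβ-MCA replicate 5, Ctss, Lgmn and Ctsl were called lower, at -0.82, -1.31 and -0.57, in the fit that called 9.44% of all genes lower. Against TCA, 2 of the 10 were called lower with Tβ-MCA, as were 216 of the 16761 genes tested. Ctsc fell by 0.93 and Ctsl fell by 0.57 on the log2 scale, with adjusted p of 0.038 and 0.0411 in edgeR's quasi-likelihood test.

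The granule serine proteases that cathepsin C activates were not called with Tβ-MCA against PBS (0 of 4 by edgeR's quasi-likelihood test). Of the 4, 3 had an unadjusted p under 0.05, beside 24.9% of all genes. Cathepsin G (Ctsg) stood at 4.13, 5.59 and 12.7 CPM with Tβ-MCA and at 18.3 to 18.8 CPM with PBS, a log2 fold change of -1.30 whose adjusted p was 0.0556 by edgeR's quasi-likelihood test. Neutrophil elastase (Elane) stood at 2.72, 5.94 and 19.2 CPM against 21.8 to 27.8 CPM with PBS. As for Stfa2l1, replicate 3 was lowest and replicate 5 highest for both. Without replicate 5, Ctsg, Elane and Prtn3 were called lower, at log2 fold changes of -1.92, -2.53 and -1.16, beside 9.44% of all genes. Prss57, the other gene of this list, stood at 3.62 to 4.64 CPM with Tβ-MCA and at 3.12 to 3.67 CPM with PBS. Its log2 fold change without replicate 5 was 0.31, and it was not called.

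Of 13 other protease inhibitors of leukocytes, 11 were tested. With Tβ-MCA against PBS, 0 were called higher and 2 lower, beside 3.18% of all genes called lower. Slpi, the secretory leukocyte protease inhibitor, stood at 57.5, 73.6 and 65.5 CPM with PBS and at 26.2, 37 and 50.1 CPM with Tβ-MCA, a log2 fold change of -0.79 whose adjusted p was 0.0438 by edgeR's quasi-likelihood test. Serpinb1a, an inhibitor of the granule serine proteases, fell by 0.89 on the log2 scale, with an adjusted p of 0.0353 by the same edgeR test. When Tβ-MCA replicate 5 was left out, 6 of the 11 were called lower, beside the same 9.44%. Cast, the calpain inhibitor calpastatin, differed by 0.04. Of the 3 calpain genes 0 were called, and 2 had an unadjusted p under 0.05, beside 24.9% of all genes. Without Tβ-MCA replicate 5, Capn2 and Capns1 were called lower, at log2 fold changes of -1.23 and -0.26, beside the same 9.44%. Of a list of 19 cystatin superfamily genes outside the cluster, 9 had a row in the count table, and of these only Cst3, Cst7 and Cstb passed the filter.

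**Figure D5:**
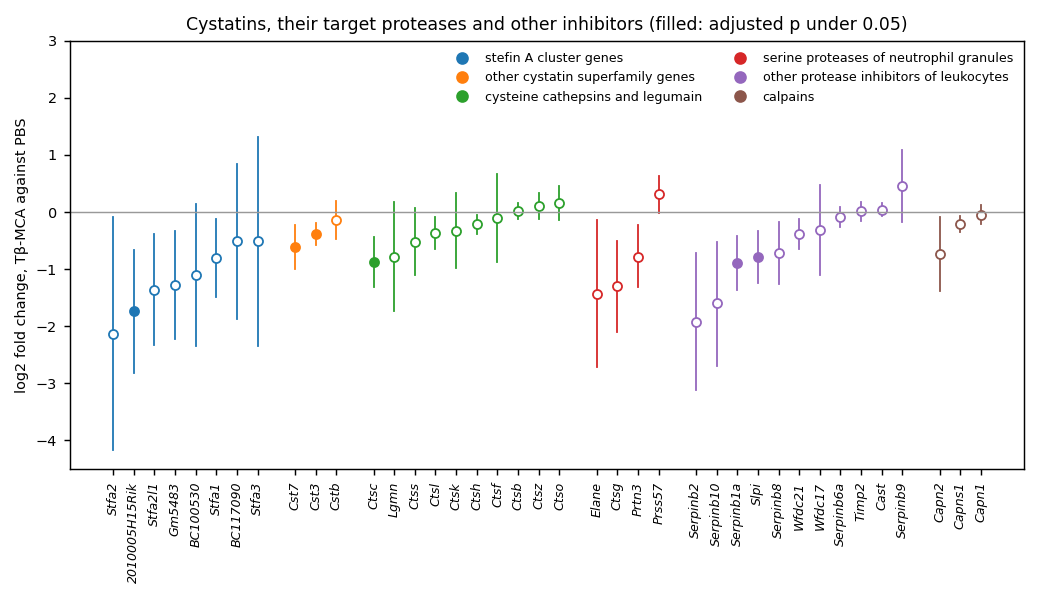
Log2 fold change of Tβ-MCA against PBS (y axis) with its 95% interval for the tested genes of 6 lists (x axis, ordered within each list). Filled points mark an adjusted p under 0.05, which 2010005H15Rik, Cst7, Cst3, Ctsc, Serpinb1a and Slpi reached, all below 0.

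Across the 12 samples, the 7 genes did not share a single pattern. Pearson's r of log2 CPM was 0.93 between Stfa2l1 and Cst3, 0.85 between Stfa1 and Stfa3 and 0.82 between Stfa1 and Stfa2, while Cstb correlated with Stfa2 and Stfa3 at -0.50 and -0.51. Stfa2l1 and Stfa2, the closest pair by sequence, correlated at 0.32. These values describe 12 samples of 4 groups, which share replicate numbers, and shared reads and low counts enter those of the stefin A copies.

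The tested gene most like Stfa2l1 over the 12 samples was Slpi (r = 0.99), followed by Zbtb16 and Bcl2l15 (both 0.98), and 466 tested genes had an r over 0.9. Cst3 was most like Tmem38a and Mrgpra2b (both 0.98), with 201 genes over 0.9. The genes most like Cstb were Rpsa and Rpl19, which encode ribosomal proteins, and Cox4i1 of the respiratory chain, all at 0.97. Cst7 was most like Actr1a (0.92), the only gene over 0.9, and then Gm12693 and Eif4e (both 0.89). For Stfa1 the nearest genes were Chmp3 (0.93), Acot9 and Ncoa4 (both 0.92), for Stfa2 Gfpt1 and Ip6k2 (both 0.96) and Prkcb (0.94), and for Stfa3 Fut4 (0.90), Vkorc1l1 and Bmpr1a (both 0.86).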

How the data were processed

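mRNA of 12 samples (4 groups of 3) was measured by RNA-seq. Per the submitters' processing notes, the authors used Trimmomatic 0.36, STAR 2.5.3a and featureCounts of Subread 1.5.1 on GRCm38 (mm10). The strand setting and the annotation release are not given in the sources used here. The deposited counts are raw counts of reads per gene, not normalized. The deposited RPKM values are these counts scaled by the length of merged exons and the reads counted in the sample, and recalculated values differed from them by a relative difference of at most 1.3e-06. RPKM was used to compare genes with each other and in limma.

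Counts were tested with edgeR 4.0.16 in R 4.3.3 (TMM, filterByExpr by group, robust quasi-likelihood test, all 12 samples, Benjamini-Hochberg adjustment over 16761 genes). CPM values use TMM library sizes, and log2 CPM for correlations a prior count of 2. Sequences were handled with Biopython 1.88 and pandas 2.3.3 in Python 3.11.15, and plots were drawn with matplotlib 3.10.9. Alternatives were DESeq2 1.42.0, total library size, no filter, a minimum of 10 counts in each sample, a fit of the compared groups alone, the replicate number as a block, limma 3.58.1 on log2(RPKM + 1) and log2(RPKM + 0.1) at a mean RPKM of at least 0.5, the cutoffs of the study's methods, and leaving out each sample. The test was checked on simulated counts with 200 changed genes. The members, the gene lists and the tests were chosen with earlier results of these data known. The genes named are the members, genes of the lists and, for each member, the 3 tested genes with the highest r, except for 1 result that is not reported here. Total counts of 32757389 to 41375925 per sample set the precision.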

Additional observations from a re-analysis of the deposited data

How the results depend on the processing

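The number of the 7 genes called with Tβ-MCA against PBS, 2 in the fit reported, was 3 with DESeq2, 1 with total library size, 4 without the filter, 2 with at least 10 counts in every sample, 0 with only the 2 groups compared, 1 and 0 with limma on log2(RPKM + 1) and log2(RPKM + 0.1), and 0 to 2 when a sample was left out. With Tβ-MCA against TCA it was 0 in the fit reported, 3 with DESeq2, 4 without the filter, 2 at the cutoffs of the study's methods and 0 to 2 when a sample was left out. None of the 7 was called with TCA or GCA against PBS or with GCA against TCA under these settings. Over all genes, counts of 0 in these comparisons became 1 with DESeq2 and 3 with the replicate block for TCA against PBS, and 37, 36 and 42 without the filter and 78, 89 and 74 at the cutoffs of the study's methods for TCA against PBS, GCA against PBS and GCA against TCA. Over all genes, the count of 1278 with Tβ-MCA against PBS was 2103 with DESeq2, 2406 without the filter, 0 with only the 2 groups compared, 861 and 689 with limma, 494 at the cutoffs of the study's methods and 0 to 3076 when a sample was left out. The count of 588 with Tβ-MCA against TCA was 1623, 2077, 72, 0 and 0 under the first 5 of these, and 0 to 2619 when a sample was left out. With total library size, 1013 genes were higher and 395 lower with Tβ-MCA than with PBS, against 745 and 533 with TMM. The causes were not tested.

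Fits with the replicate number as a block called 2 of the 7 genes with Tβ-MCA against PBS (Stfa2l1 and Cst3, adjusted p 0.0433 and 0.00862 by edgeR) and 4 with Tβ-MCA against TCA (Stfa1, Stfa2, Stfa2l1 and Cst3), with 1498 and 2322 genes called in all. The labels do not say what a number marks, PBS shares only 2 numbers with each bile acid, and the deviations of same-numbered samples correlated at 0.081 to 0.26 between Tβ-MCA and TCA, 0.067 to 0.31 between GCA and TCA, and 0.060 to 0.24, 0.13 to 0.33 and 0.13 to 0.32 between Tβ-MCA, TCA and GCA and PBS, so the pairing was not taken as shown. Samples that share a number correlated best with it between TCA or GCA and PBS, but not in every case in the other comparisons.

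The sign of a member's log2 fold change turned in 18 cases, none of them for a called gene. Cstb with Tβ-MCA against TCA was 0.03 with total library size and 0.04 with limma at either pseudocount. The other sign changes came from leaving out a sample, where the lowest and highest values were -0.12 and 0.08 for Cstb with Tβ-MCA against TCA, -0.23 and 0.03 for Cstb with GCA against PBS, and -0.08 and 0.16 for Cstb with GCA against TCA. They were -1.23 and 0.54 for Stfa3 with Tβ-MCA against PBS, -2.44 and 0.09 for Stfa3 and -2.10 and 0.04 for Stfa2 with GCA against PBS. With TCA against PBS they were -0.27 and 0.87 for Stfa2, -0.09 and 0.41 for Stfa1 and -0.32 and 0.02 for Stfa2l1. DESeq2 gave no adjusted p for Stfa2 and Stfa3 with Tβ-MCA against PBS. Depth limits Stfa2 and Stfa3, which had 0 to 53 counts per sample.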
